A study of Danio rerio with 72 samples.

Results

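The response of the adult zebrafish telencephalon to stress was compared between fish exposed to fluoxetine as embryos and larvae and fish exposed to its vehicle. The 24 adult telencephalon libraries of a series of 72 RNA-seq libraries were used, 6 in each of 4 groups, selected by their labels. For each gene the quantity tested was the fluoxetine by stress interaction on the log2 scale, the stress effect in fluoxetine fish minus the stress effect in vehicle fish. A positive interaction therefore means that stressed minus unstressed was higher in fluoxetine fish than in vehicle fish. Of 18367 genes tested, 147 had an interaction past the threshold, an adjusted p under 0.05 in edgeR's quasi-likelihood test (0.8% of genes tested), and these are called below.

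Fluoxetine is a selective inhibitor of serotonin reuptake that is prescribed as an antidepressant, also in pregnancy. In fish as in mammals, stress raises cortisol, which acts through the glucocorticoid receptor to switch on target genes in the brain. The circadian clock is a feedback loop found in most cells, the fish brain included: BMAL1 with CLOCK or its relative NPAS2 activates the period, cryptochrome and REV-ERB genes, and their products shut the activators down. Glucocorticoids can reset this loop in mammalian tissues, with PER1 as a direct target.

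All fish carried the SR4G transgene, in which glucocorticoid response elements drive d4EGFP, a short-lived green fluorescent protein. Each library was made from a pool of 5 telencephala of adults aged 6 months. The fluoxetine stressed and fluoxetine unstressed groups had been kept in fluoxetine at 54 µg per litre from 0 to 6 days post fertilization, and the vehicle stressed and vehicle unstressed groups in 0.0053% ethanol over the same days. No source used here gives the stressor, the time between stress and sampling or the time of day. The labels also do not say whether pools of one group were raised apart, so p-values measure the spread between pools, which may be technical in part. Counts are of whole tissue, in which fewer cells of a type and less RNA per cell cannot be told apart.

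Libraries held 14210173 to 20960691 counts each. The correlation of each library with the mean of the others in its group was r of 0.9734 to 0.9914. Telencephalic transcription factor genes were present in every library (TBR1 at 90 to 224 CPM and EOMES copy ENSDARG00000006640 at 235 to 358 CPM, where CPM are read counts scaled to library size). The hypothalamic peptide genes HCRT and agrp were at 0 in 19 and 22 of the 24 libraries. Other listed hypothalamus and preoptic markers were present in every library, such as OTP copy ENSDARG00000014201 (9.35 to 25.7 CPM) and NKX2-1 (14.4 to 23.5 CPM). Of 29 such genes 15 were tested. For fluoxetine fish their summed CPM was 458.6 to 738.2 when stressed and 317.7 to 571.6 when unstressed. For vehicle fish it was 337.5 to 608.5 and 238.8 to 844.9. The part of these markers in the results was not tested. Replicates 1 to 3 of every group carry library numbers 1 to 24 and replicates 4 to 6 numbers 25 to 48, and 3249 genes differed between these 2 sets, which are balanced over the groups. Within the sets the numbers were not balanced. They were 15 to 23 and 39 to 47 for fluoxetine stressed and 6 to 19 and 30 to 43 for fluoxetine unstressed libraries. For vehicle stressed libraries they were 2 to 11 and 26 to 35, and for vehicle unstressed ones 16 to 21 and 40 to 45. The part of this order in the results was not tested.

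Of the 147 called genes, 45 had a positive interaction (0.245% of genes tested), with a median of 0.76 and a range of 0.30 to 2.002 on the log2 scale. The other 102 had a negative one (0.555%), with a median of -0.89 and a range of -8.85 to -0.36. Without an adjustment, 2364 genes had a p under 0.05. Fits within replicates 1 to 3 and within replicates 4 to 6 called 36 and 18 genes, and a fit with the set of libraries as a term called 216. Leaving out 1 library at a time gave 109 to 289 calls, and only the fit without vehicle unstressed replicate 2 moved the count by more than 1.5 times, to the 289. The 10 called genes nearest to the threshold had adjusted p of 0.0439 to 0.0493, and the 10 nearest genes on the other side had 0.0518 to 0.0526.

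Most called genes changed with stress in vehicle fish and did not pass the test for stress in fluoxetine fish. Stress was called in vehicle fish alone for 91 of the 147, in fluoxetine fish alone for 19, in both in the same direction for 23 and in both in opposite directions for 14. Over all genes tested, stress was called for 2499 genes in fluoxetine fish (13.6%) and for 4928 in vehicle fish (26.8%). The vehicle stressed group stood farthest from the other 3 groups for 89 of the 147 genes (60.5%), against 17.6% of all genes tested. It was the highest group for 91 of the 102 negative genes, against 17.3% of all genes tested. It was the lowest for 34 of the 45 positive ones, against 20.1%. The sign of the interaction limits these counts, since the other group that took the highest place among negative genes, and the lowest among positive ones, was fluoxetine unstressed, in 11 and 11 genes. A fit in which all 48 adult libraries shared 1 estimate of the spread called 163 genes, of which 107 were among the 147. The genes named below that lost their call in that fit are given with its adjusted p.

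**Figure D1:**
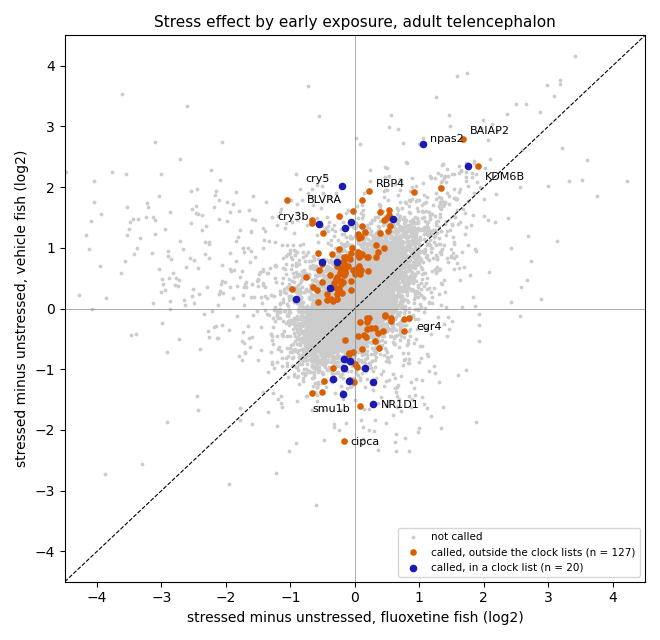
Stress effect (log2, stressed minus unstressed) in fluoxetine fish on the x axis and in vehicle fish on the y axis, 1 point per gene tested; 2 called genes lie outside the axes. The dashed line marks equal effects, and for 91 of the 147 called genes only the effect on the y axis passed its test. Called genes were chosen on the difference between the 2 effects.

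The clock lists held 58 tested genes, of which 20 were called, 9 positive and 11 negative. Over all genes tested 0.8% were called, 0.245% positive and 0.555% negative. Among 22 clock repressors 8 were positive and 3 negative, among 15 clock activators 5 were negative, and among 21 clock output genes 1 was positive and 3 were negative. The median interaction was 0.15 for the repressors, -0.70 for the activators and -0.41 for the outputs, against -0.031 for all genes tested. Zebrafish keep duplicated copies of many of these genes, and reads of near-identical copies could be split between them.

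NR1D1, the REV-ERB receptor that represses BMAL1, had 102 to 127 CPM (median 110.3) in fluoxetine stressed and 76.8 to 109 CPM (median 88.3) in fluoxetine unstressed libraries. It had 28.2 to 39.1 CPM (median 33.6) in vehicle stressed and 77.1 to 115 CPM (median 103) in vehicle unstressed libraries. All 6 vehicle stressed libraries lay below every other library, and the 2 fluoxetine groups overlapped. The interaction (log2 1.85 ± 0.14 SE, adjusted p = 8.62e-09) was made up of a stress effect of 0.28 in fluoxetine fish (adjusted p = 0.0652) and of -1.58 in vehicle fish (adjusted p = 1.63e-11). Its relative nr1d4b had an interaction of 0.84 (adjusted p = 0.0138), which became 0.75 with an adjusted p of 0.0515 when the level of photoreceptor markers in each library was added to the fit, an alternative chosen after seeing the data. It was also not called with the spread shared by both regions (adjusted p = 0.105).

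BHLHE41, a repressor that competes with BMAL1 and CLOCK for DNA, had 376 to 435 CPM (median 406) in fluoxetine stressed and 406 to 501 CPM (median 464) in fluoxetine unstressed libraries. The vehicle groups had 178 to 246 CPM (median 204) when stressed and 482 to 609 CPM (median 539) when unstressed. Vehicle stressed libraries were again the lowest, without overlap (log2 1.22 ± 0.11 SE, adjusted p = 1.02e-07). BHLHE40, its close paralog, moved in the same direction to a lesser extent (log2 0.67 ± 0.086 SE, adjusted p = 4.38e-05), with 400.5 ± 10.8 CPM in fluoxetine stressed, 449 ± 28.7 CPM in fluoxetine unstressed, 279.8 ± 17.9 CPM in vehicle stressed and 498 ± 39.2 CPM in vehicle unstressed libraries (SD, n = 6 each).

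Among the period genes, PER1 copy ENSDARG00000056885 had 78 to 90.2 CPM (median 81.4) in fluoxetine stressed and 57.5 to 83.7 CPM (median 76.4) in fluoxetine unstressed libraries. Its vehicle levels were 28.6 to 37.4 CPM (median 30.6) in stressed and 56.8 to 68.3 CPM (median 61.5) in unstressed libraries. The copy fell with stress in vehicle fish (-0.98 on the log2 scale) and had 0.15 with an adjusted p of 0.206 in fluoxetine fish, an interaction of 1.138 (adjusted p = 8.72e-07). The other PER1 copy, ENSDARG00000012499, had a smaller interaction (log2 0.81 ± 0.075 SE, adjusted p = 2.12e-07) on levels of 352 ± 10.4 CPM in fluoxetine stressed, 398 ± 28.6 CPM in fluoxetine unstressed, 197 ± 7.54 CPM in vehicle stressed and 391 ± 15.6 CPM in vehicle unstressed libraries. PER2, which light induces in zebrafish, rose with stress in fluoxetine fish (1.12) and in vehicle fish (1.25), and its interaction of -0.13 (95% confidence interval -0.34 to 0.089) was not called; intervals here are not adjusted for the number of genes.

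ciarta, a copy of the gene for the repressor CIART, had 106 to 119.9 CPM (median 114) in fluoxetine stressed and 81.2 to 101 CPM (median 95.2) in fluoxetine unstressed libraries. It had 36 to 49.2 CPM (median 41.3) in vehicle stressed and 84 to 108 CPM (median 96) in vehicle unstressed libraries. It rose with stress in fluoxetine fish (0.28, adjusted p = 0.0137) and fell in vehicle fish (-1.21, adjusted p = 9.46e-12), so that the interaction was 1.49 ± 0.11 SE (adjusted p = 2.48e-09). cipca is outside the clock lists; it is a copy of CIPC, an inhibitor of CLOCK and BMAL1 in mammals. Its levels were 14.4 to 20.2 CPM (median 15.3) in fluoxetine stressed and 13.8 to 21.4 CPM (median 18.5) in fluoxetine unstressed libraries, and 2.34 to 4.17 CPM (median 3.77) in vehicle stressed and 11.6 to 19.3 CPM (median 15.7) in vehicle unstressed libraries, the largest positive interaction of all called genes (log2 2.002 ± 0.20 SE, adjusted p = 4.13e-07).

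The cryptochrome genes did not move together. CRY2 had a positive interaction (log2 0.79 ± 0.11 SE, adjusted p = 9.35e-05) on 87.9 ± 5.75 CPM in fluoxetine stressed, 92.9 ± 8.83 CPM in fluoxetine unstressed, 45.9 ± 4.45 CPM in vehicle stressed and 83.7 ± 6.34 CPM in vehicle unstressed libraries. cry3a and cry3b had negative ones of -1.49 and -1.95 (adjusted p = 0.000343 and 2.12e-07). For cry3b the fluoxetine groups had 6.56 to 8.99 CPM (median 8.74) when stressed and 10.8 to 14.1 CPM (median 11.8) when unstressed, and the vehicle groups 24.3 to 43.4 CPM (median 30.4) and 9.51 to 14.1 CPM (median 12.4). It fell with stress in fluoxetine fish (-0.55, adjusted p = 0.00529) and rose in vehicle fish (1.40, adjusted p = 7e-09).

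The 5 called activator genes had interactions opposite in sign to those of most called repressors. BMAL1 copy ENSDARG00000035732 had 4.35 to 7.45 CPM (median 6) in fluoxetine stressed and 5.28 to 7.66 CPM (median 5.77) in fluoxetine unstressed libraries. It had 8.83 to 13.3 CPM (median 10.9) in vehicle stressed and 3.08 to 5.23 CPM (median 4.08) in vehicle unstressed libraries, and all 6 vehicle stressed libraries lay above every other library (log2 -1.48 ± 0.22 SE, adjusted p = 0.000359). The second BMAL1 copy, ENSDARG00000006791, had 15.2 ± 1.17 CPM in fluoxetine stressed, 18.3 ± 2.83 CPM in fluoxetine unstressed, 32.3 ± 4.77 CPM in vehicle stressed and 18.9 ± 1.37 CPM in vehicle unstressed libraries (log2 -1.04 ± 0.14 SE, adjusted p = 0.000111). npas2 rose with stress in both, by 1.06 on the log2 scale in fluoxetine fish and 2.70 in vehicle fish, and the difference was called (log2 -1.65 ± 0.25 SE, adjusted p = 0.000334). Its levels were 10.7 to 17.6 CPM (median 15) in fluoxetine stressed and 5.35 to 8.96 CPM (median 7.36) in fluoxetine unstressed libraries. They were 23.6 to 35.2 CPM (median 29.6) in vehicle stressed and 3.2 to 7.24 CPM (median 3.86) in vehicle unstressed libraries, so each stressed group lay above its unstressed group without overlap.

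The retinoic acid related orphan receptor copies rorca and rorcb, whose mammalian relatives activate BMAL1, were both called. rorcb fell with stress in fluoxetine fish (-0.92, adjusted p = 3.55e-05) and had 0.15 with an adjusted p of 0.397 in vehicle fish. Fluoxetine stressed libraries held 9.27 to 12 CPM (median 10.5) and lay below all others, against 18.1 to 23.3 CPM (median 19.3) in fluoxetine unstressed, 20.8 to 36.8 CPM (median 26) in vehicle stressed and 20 to 29.7 CPM (median 24.7) in vehicle unstressed libraries. rorca had an interaction of -1.28 ± 0.25 SE (adjusted p = 0.00712). Neither CLOCK copy was called: the interaction was -0.41 (interval -0.76 to -0.062) for ENSDARG00000003631 and -0.70 (interval -1.19 to -0.21) for ENSDARG00000011703. The last of these was called without vehicle unstressed replicate 2, at -0.86 with an adjusted p of 0.0392.

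Output genes act at the D-box element, where DBP activates and NFIL3 represses. dbpb had a positive interaction (log2 1.105 ± 0.18 SE, adjusted p = 0.00112), with 254 ± 32.1 CPM in fluoxetine stressed, 271 ± 44.2 CPM in fluoxetine unstressed, 135 ± 29.3 CPM in vehicle stressed and 310.0 ± 36.9 CPM in vehicle unstressed libraries. The 3 called nfil3 copies were negative, nfil3-5 at -0.89 (adjusted p = 5.23e-05), NFIL3 at -0.72 (adjusted p = 0.014) and nfil3-6 at -0.60 (adjusted p = 0.0212). nfil3-5 rose with stress in both, to 33.4 to 38.1 CPM (median 35.6) in fluoxetine stressed libraries, against 19.6 to 27.9 CPM (median 24.2) in unstressed ones, and to 58.6 to 77.5 CPM (median 61.5) in vehicle stressed libraries, against 20.4 to 25.1 CPM (median 23.4) in unstressed ones. The call for nfil3-6 was lost without fluoxetine unstressed replicate 3 (-0.55, adjusted p = 0.0554), fluoxetine unstressed replicate 4 (-0.55, adjusted p = 0.0597) or fluoxetine stressed replicate 6 (-0.57, adjusted p = 0.0532), and with the shared spread (adjusted p = 0.13).

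The pineal organ and photoreceptors also run strong clocks, and markers of these tissues varied between libraries. The mean log2 CPM of 16 habenula and pineal markers ranged over 1.91 to 2.97 in fluoxetine stressed, 0.89 to 3.23 in fluoxetine unstressed, 2.18 to 3.50 in vehicle stressed and 1.44 to 3.02 in vehicle unstressed libraries. Of the 16 none was called, against 0.8% of all genes tested, a share at which a list of this size may hold no call. With the photoreceptor marker level as a term, 164 genes were called for the interaction, of which 117 were among the 147. The 18 called clock genes other than nr1d4b and nfil3-6 stayed past the threshold. That term held photoreceptor markers only, and the part of the habenula and pineal markers in the results was not tested.

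**Figure D2:**
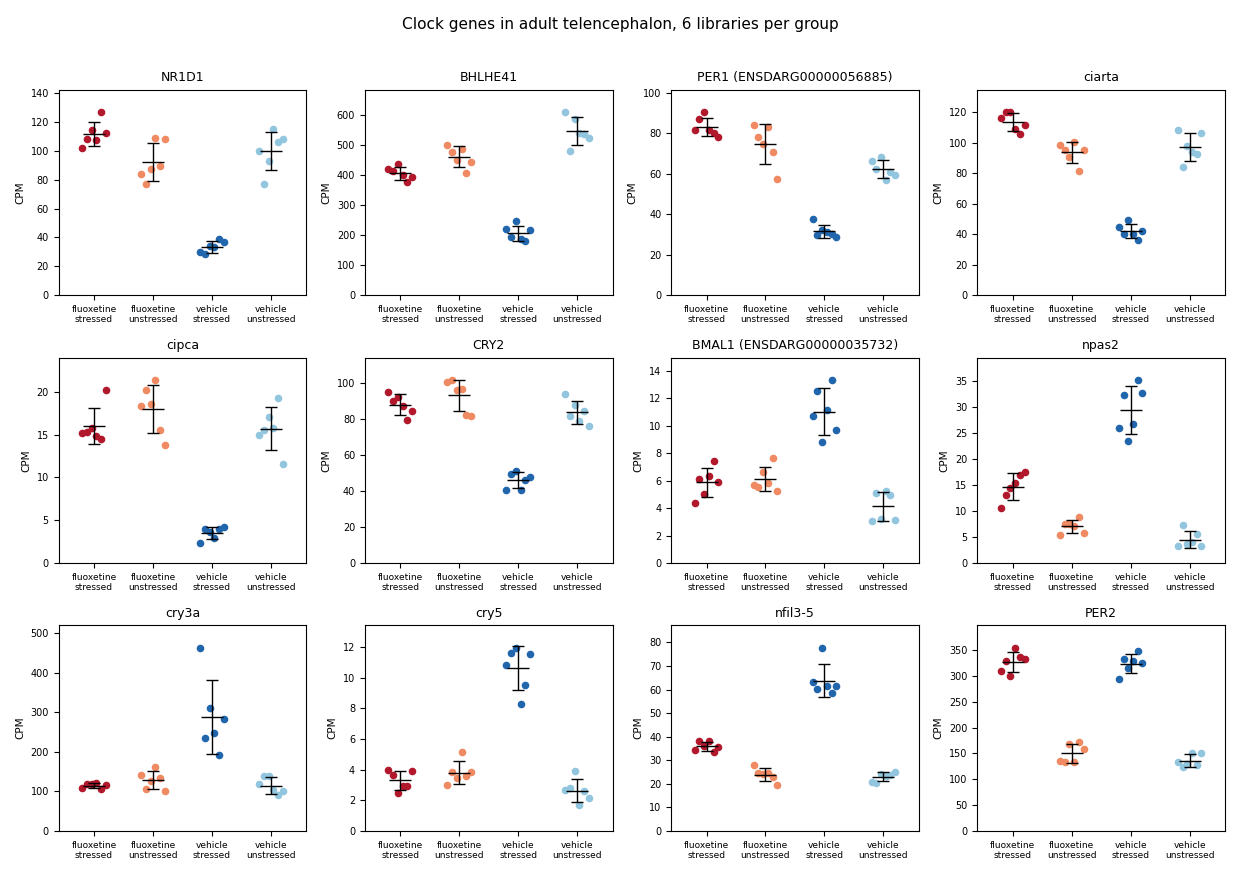
Levels (CPM, linear axes from 0) of 12 clock genes, 1 point per library, with the mean and SD of 6 libraries as bars. Vehicle stressed libraries stand below the other groups for NR1D1, BHLHE41, PER1 copy ENSDARG00000056885, ciarta, cipca and CRY2 and above them for BMAL1 copy ENSDARG00000035732, npas2, cry3a, cry5 and nfil3-5, while PER2 is high in both stressed groups.

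The lowest p of all genes belonged to smu1b, which is a copy of SMU1, a WD-repeat protein of the spliceosome. smu1b had 247 to 280.2 CPM (median 274) in fluoxetine stressed and 241 to 268 CPM (median 257) in fluoxetine unstressed libraries. It had 92.5 to 119 CPM (median 105) in vehicle stressed and 285 to 361 CPM (median 311) in vehicle unstressed libraries. Vehicle stressed libraries were at 0.327 times the level of vehicle unstressed ones and did not overlap with any other group, while fluoxetine libraries overlapped between stressed and unstressed. The stress effect was 0.074 in fluoxetine fish (adjusted p = 0.476) and -1.61 in vehicle fish (adjusted p = 3.67e-15), an interaction of 1.69 ± 0.092 SE (adjusted p = 1.12e-11). Its paralog SMU1 had 26.7 ± 1.47 CPM in fluoxetine stressed, 28.5 ± 3.4 CPM in fluoxetine unstressed, 26.8 ± 4.09 CPM in vehicle stressed and 27.8 ± 2.79 CPM in vehicle unstressed libraries, and its interaction of -0.041 (interval -0.32 to 0.24) was not called. Of 106 splicing and RNA-binding genes tested, smu1b and DDX17 were called, against 0.8% of all genes tested. DDX17, an RNA helicase, fell with stress in fluoxetine fish (-0.57, adjusted p = 0.000168) and had 0.11 in vehicle fish (adjusted p = 0.41).

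Photolyases use light to repair ultraviolet damage in DNA and belong to the cryptochrome family; 3 such genes were brought together after their values were seen. cry5, listed with the clock repressors and known in zebrafish as the light-induced 6-4 photolyase, had 2.48 to 3.98 CPM (median 3.26) in fluoxetine stressed and 2.98 to 5.17 CPM (median 3.69) in fluoxetine unstressed libraries. It had 8.29 to 11.9 CPM (median 11.2) in vehicle stressed and 1.66 to 3.89 CPM (median 2.62) in vehicle unstressed libraries (log2 -2.22 ± 0.24 SE, adjusted p = 2.41e-06). cpdp, the cyclobutane pyrimidine dimer photolyase, had 7.4 to 9.96 CPM (median 8.72) in fluoxetine stressed and 7.2 to 8.55 CPM (median 8.19) in fluoxetine unstressed libraries. It had 18 to 23.4 CPM (median 20.9) in vehicle stressed and 7.39 to 8.77 CPM (median 8.05) in vehicle unstressed libraries (log2 -1.25 ± 0.12 SE, adjusted p = 4.13e-07). cry-dash, of the single-strand photolyase family, had an interaction of -1.18 (adjusted p = 1.16e-05). For all 3 genes the 6 vehicle stressed libraries lay above the other 18, and the fluoxetine groups overlapped.

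Other genes of DNA repair and replication were chosen after their values were seen. xrcc1, a scaffold of single-strand break repair, had 18.3 ± 0.716 CPM in fluoxetine stressed, 18.1 ± 1.13 CPM in fluoxetine unstressed, 29.5 ± 3.6 CPM in vehicle stressed and 18.8 ± 1.38 CPM in vehicle unstressed libraries (log2 -0.63 ± 0.11 SE, adjusted p = 0.00204). NEIL1, a glycosylase of oxidised bases, had an interaction of -0.93 (adjusted p = 0.0134); its 6 vehicle stressed libraries, at 15.5 to 24.1 CPM (median 17), lay above the other 18. HELLS, a chromatin remodeller of dividing cells, had -1.04 (adjusted p = 0.00443). WEE1, a kinase that delays mitosis and a clock target in mammals, rose with stress in fluoxetine fish (0.92) and more in vehicle fish (1.92; log2 -0.995 ± 0.19 SE, adjusted p = 0.00463). None of the 40 listed genes of DNA replication and mitosis was called, against 0.8% of all genes tested. At that share a list of this size may hold no call.

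BLVRA, the biliverdin reductase that ends heme breakdown and was among the 12 most negative genes, had 4.84 to 7.62 CPM (median 6.17) in fluoxetine stressed and 4.73 to 6.69 CPM (median 5.66) in fluoxetine unstressed libraries. It had 11.1 to 20.4 CPM (median 16.7) in vehicle stressed and 3.32 to 5.39 CPM (median 5.04) in vehicle unstressed libraries. It had a stress effect of 0.11 in fluoxetine fish (adjusted p = 0.659), rose in vehicle fish (1.79, adjusted p = 2.6e-09) and had an interaction of -1.68 (adjusted p = 3.54e-05). The next genes were chosen after their values were seen. HMOX2, the constitutive heme oxygenase, fell with stress in fluoxetine fish (-0.33, adjusted p = 0.00453) and rose in vehicle fish (0.42, adjusted p = 0.000175), with 30.8 ± 1.63 CPM in fluoxetine stressed, 38.6 ± 1.25 CPM in fluoxetine unstressed, 51 ± 6.32 CPM in vehicle stressed and 38.1 ± 3.05 CPM in vehicle unstressed libraries. HCCS, which attaches heme to cytochrome c, had an interaction of -1.01 (adjusted p = 0.000164), and tspo, a porphyrin-binding protein of the outer mitochondrial membrane, one of -0.89 (adjusted p = 0.0069).

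NR1I2, the pregnane X receptor that senses foreign compounds, was the only called gene of 39 listed for thyroid and nuclear receptors outside the clock, against 0.8% of all genes tested. It had 11 to 14.2 CPM (median 12.4) in fluoxetine stressed and 10.5 to 13.1 CPM (median 12.4) in fluoxetine unstressed libraries. It had 14.9 to 20.2 CPM (median 17.3) in vehicle stressed and 8.33 to 11.1 CPM (median 8.89) in vehicle unstressed libraries (log2 -0.89 ± 0.13 SE, adjusted p = 0.000334), and the vehicle stressed libraries lay above all others. Again chosen after their values were seen, the exporter gene ABCC1 had -0.84 (adjusted p = 0.000415), the microsomal epoxide hydrolase EPHX1 -0.85 (adjusted p = 0.00194), and MSRB3, which repairs oxidised methionine, -0.78 (adjusted p = 0.0111). The short-chain dehydrogenase genes dhrs12 and DHRS13 were named by rank. dhrs12 rose with stress in vehicle fish to 22.3 to 25.4 CPM (median 23), against 9.44 to 11 CPM (median 10.4) in unstressed ones, while fluoxetine libraries had 11.6 to 12.5 CPM (median 11.9) when stressed and 9.8 to 13.1 CPM (median 11.2) when unstressed (log2 -1.08 ± 0.10 SE, adjusted p = 4.07e-07). DHRS13 fell in fluoxetine fish (-0.75, adjusted p = 0.00249) and rose in vehicle fish (0.52, adjusted p = 0.0172).

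Without stress, 35 of the 147 called genes were higher in fluoxetine than in vehicle fish and 15 were lower. The shares of all genes tested were 4.88% and 2.93%. The interaction is computed in part from this same difference, so these counts are no separate test. RBP4, abcg2a and EPHX2 were among the 35 higher genes. The comparison called 7.81% of all genes. That share rests on 1435 calls, which ran from 281 without fluoxetine unstressed replicate 5 to 3627 without vehicle unstressed replicate 2 and were 0 and 5 within the 2 sets of libraries. RBP4, the carrier of retinol and a marker of choroid plexus and meninges in the lists, had 80.1 to 112 CPM (median 99.6) in fluoxetine stressed and 67.1 to 114 CPM (median 80.5) in fluoxetine unstressed libraries. It had 123 to 201 CPM (median 151) in vehicle stressed and 29.9 to 89.2 CPM (median 32.6) in vehicle unstressed libraries, where 5 of the 6 unstressed libraries held 29.9 to 39.2 CPM and replicate 6 held 89.2 CPM. Without stress it was higher in fluoxetine than in vehicle fish (1.01, adjusted p = 0.013), and with stress it rose in vehicle fish alone (1.93, adjusted p = 5.15e-07; in fluoxetine fish 0.22, adjusted p = 0.527; interaction -1.72, adjusted p = 0.00251). abcg2a, a copy of the exporter gene ABCG2, had 6.62 ± 1.1 CPM in fluoxetine stressed, 9.33 ± 2.98 CPM in fluoxetine unstressed, 10.3 ± 3.37 CPM in vehicle stressed and 4.33 ± 1.71 CPM in vehicle unstressed libraries (log2 -1.74 ± 0.35 SE, adjusted p = 0.0104), and was higher in fluoxetine than in vehicle fish without stress (1.11, adjusted p = 0.0173). EPHX2, the soluble epoxide hydrolase and chosen after its values were seen, had 9.72 ± 1.63 CPM in fluoxetine stressed, 8.7 ± 2.51 CPM in fluoxetine unstressed, 11.3 ± 2.46 CPM in vehicle stressed and 4.71 ± 0.707 CPM in vehicle unstressed libraries. It too was higher with fluoxetine without stress (0.89, adjusted p = 0.00953), and its interaction of -1.11 (adjusted p = 0.0258) was called in 16 of 24 fits that left out 1 library, over a range of -1.23 to -1.003.

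The mean log2 CPM of 25 endothelial markers was 2.30 to 2.73 in fluoxetine stressed, 1.89 to 2.61 in fluoxetine unstressed, 1.74 to 2.47 in vehicle stressed and 1.13 to 1.84 in vehicle unstressed libraries. Without stress 10 of the 25 were higher in fluoxetine than in vehicle fish and 0 lower, against 4.88% and 2.93% of all genes tested, and with stress in vehicle fish 11 were higher and 2 lower, against 15% and 11.8%. Among stressed fish the fluoxetine effect was called for 0 of the 25 in either direction, against 3.51% of all genes (1.16% higher and 2.35% lower). None of the 25 was called for the interaction, against 0.8% of all genes tested, a share at which a list of this size may hold no call. The 18 choroid plexus and meninges markers had means of 2.56 to 3.20 in fluoxetine stressed, 2.60 to 3.41 in fluoxetine unstressed, 2.25 to 2.96 in vehicle stressed and 2.14 to 2.80 in vehicle unstressed libraries, and RBP4 was the 1 called; TTR was at 0 in 20 of 24 libraries. Without stress 5 of the 18 were higher in fluoxetine than in vehicle fish and 0 lower, against 4.88% and 2.93% of all genes tested. With stress in vehicle fish 6 were higher and 3 lower, against 15% and 11.8%. Among stressed fish the fluoxetine effect was called for 0 of the 18, against 3.51%. The part of the endothelial and the choroid plexus and meninges markers in the results on RBP4, abcg2a and EPHX2 was not tested.

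**Figure D3:**
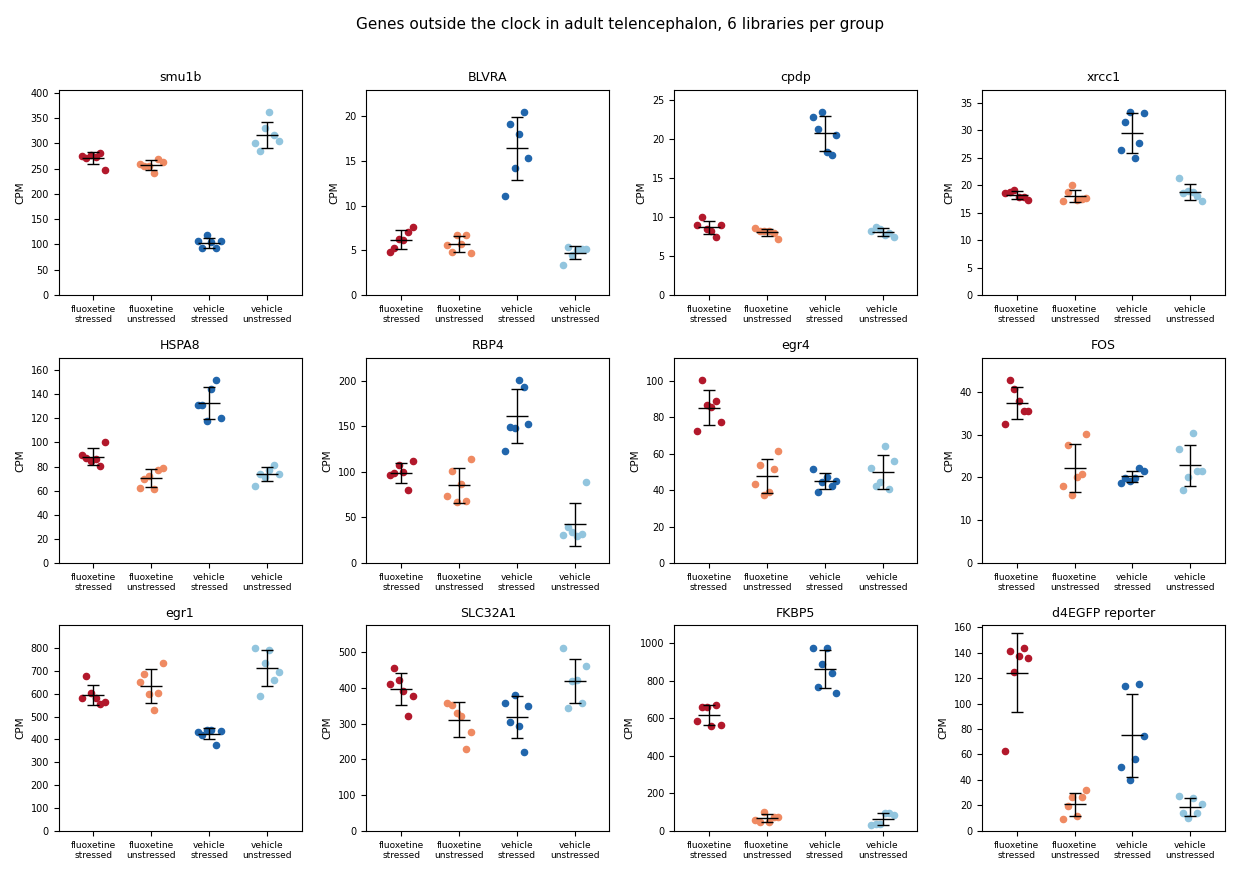
Levels (CPM, linear axes from 0) of 11 genes outside the clock lists and of the d4EGFP reporter, 1 point per library, with the mean and SD of 6 libraries as bars. Vehicle stressed libraries stand apart for smu1b, BLVRA, cpdp, xrcc1, HSPA8, RBP4 and egr1, fluoxetine stressed libraries for egr4 and FOS, and FKBP5 and d4EGFP are high in both stressed groups.

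Of 102 listed heat shock, J-domain and chaperonin genes, 1 was positive and 4 were negative, against 0.245% and 0.555% of all genes tested. The list left out a called J-domain gene, dnaja (-1.23, adjusted p = 0.0169), whose result with the shared spread was not examined. HSF2, a heat shock transcription factor, fell with stress in vehicle fish to 53.9 to 64.8 CPM (median 58), against 81.1 to 108 CPM (median 98) in unstressed ones, and fluoxetine libraries had 84 to 91.2 CPM (median 88) when stressed and 80.9 to 98.4 CPM (median 88.2) when unstressed (log2 0.70 ± 0.094 SE, adjusted p = 9.32e-05). HSPA8, the constitutive Hsc70 chaperone, rose with stress in both, to 88.1 ± 6.92 CPM in fluoxetine stressed libraries, against 70.3 ± 7.41 CPM in unstressed ones, and to 133 ± 13.1 CPM in vehicle stressed libraries, against 73.7 ± 5.92 CPM in unstressed ones (log2 -0.52 ± 0.11 SE, adjusted p = 0.018), a call lost with the shared spread (adjusted p = 0.24). dnajc4 had an interaction of -0.68 (adjusted p = 0.0017). The calls for HSPE1, the mitochondrial co-chaperonin (-0.49, adjusted p = 0.0439), and dnajb1b (-0.93, adjusted p = 0.041) held in 5 of 24 and 9 of 24 fits that left out 1 library.

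Of 57 chromatin and DNA methylation genes, 3 were negative and 0 positive, against 0.555% and 0.245% of all genes tested. KDM6B, which removes methyl groups from lysine 27 of histone H3, rose with stress to 509.6 to 553 CPM (median 538) in fluoxetine fish, against 130.5 to 154 CPM (median 143) in unstressed ones, and to 558 to 643 CPM (median 590.1) in vehicle fish, against 108 to 124 CPM (median 117) in unstressed ones. None of the 4 groups overlapped, and the increase was smaller in fluoxetine fish (log2 -0.45 ± 0.074 SE, adjusted p = 0.00125), with an adjusted p of 0.0655 under the shared spread. The H3 lysine 4 methyltransferase genes kmt2a and KMT2D had interactions of -0.74 (adjusted p = 0.034) and -0.64 (adjusted p = 0.039), called in 10 of 24 and 9 of 24 fits that left out 1 library and in neither case with the shared spread (adjusted p = 0.187 and 0.0898). Their relative KMT2C, chosen after its values were seen, fell with stress in fluoxetine fish (-0.35, adjusted p = 0.000383) and had 0.12 in vehicle fish (adjusted p = 0.136).

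Of 57 immediate early genes, 3 were called, all positive, against 0.245% of all genes tested. egr4, a transcription factor gene induced by neuronal activity, had 72.4 to 100.4 CPM (median 86.5) in fluoxetine stressed and 37.5 to 61.5 CPM (median 47.4) in fluoxetine unstressed libraries. It had 39.3 to 51.9 CPM (median 44.8) in vehicle stressed and 40.6 to 64.5 CPM (median 48.3) in vehicle unstressed libraries. Fluoxetine stressed libraries lay above all others, and the stress effect was 0.84 in fluoxetine fish (adjusted p = 3.69e-05) and -0.15 in vehicle fish (adjusted p = 0.378; log2 0.99 ± 0.17 SE, adjusted p = 0.00213). FOS followed the same order, with 32.5 to 42.7 CPM (median 36.7) in fluoxetine stressed and 15.9 to 30.2 CPM (median 20.4) in fluoxetine unstressed libraries, and 18.8 to 22.3 CPM (median 19.8) in vehicle stressed and 17.1 to 30.4 CPM (median 21.6) in vehicle unstressed libraries (log2 0.94 ± 0.19 SE, adjusted p = 0.0129). egr1 differed from these in that it fell with stress in vehicle fish (-0.74, adjusted p = 1.98e-07) to 377 to 442 CPM (median 435), against 592 to 799 CPM (median 715) in unstressed ones, and had -0.10 in fluoxetine fish (adjusted p = 0.459; interaction 0.65, adjusted p = 0.0022).

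FOSB and both NPAS4 copies rose with stress in both and were not called for the interaction. FOSB had 47.6 ± 4.79 CPM in fluoxetine stressed, 11.1 ± 3.06 CPM in fluoxetine unstressed, 40.8 ± 11.2 CPM in vehicle stressed and 7.34 ± 2.03 CPM in vehicle unstressed libraries, with an interaction of -0.37 (interval -0.93 to 0.19). NPAS4 copy ENSDARG00000055752 rose by 1.55 on the log2 scale in fluoxetine fish and 1.50 in vehicle fish, with an interaction of 0.052 (interval -0.18 to 0.29), and copy ENSDARG00000087753 had an interaction of -0.44 (interval -0.83 to -0.061). Stress was called upward for 26 of the 57 in fluoxetine fish and 25 of 57 in vehicle fish, and downward for 1 and 4, against 6.35% and 15% of all genes upward and 7.26% and 11.8% downward. BDNF, a growth factor gene that activity induces, rose in fluoxetine fish (0.54) and in vehicle fish (0.35), and its interaction of 0.20 (interval -0.095 to 0.48) was not called.

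SLC32A1, a gene of the GABA system list whose product loads GABA into synaptic vesicles, had 322 to 456 CPM (median 402) in fluoxetine stressed and 229 to 357 CPM (median 325) in fluoxetine unstressed libraries. It had 220.3 to 380.0 CPM (median 328) in vehicle stressed and 344 to 511 CPM (median 422) in vehicle unstressed libraries (log2 0.75 ± 0.18 SE, adjusted p = 0.0384). All 4 groups overlapped, and the effect was split between 0.35 with stress in fluoxetine fish (adjusted p = 0.0597) and -0.40 in vehicle fish (adjusted p = 0.0213). The call depended on the libraries used, and held in 12 of 24 fits that left out 1 library and not with the shared spread (adjusted p = 0.126). None of the 60 genes tested of the glutamate list and none of the 66 of the synaptic vesicle list was called. These lists do not hold every such gene. SLC32A1 is outside the vesicle list, and SLC1A1 and GRIP2, called and described below, are in neither. Over all genes tested the share was 0.8%, at which lists of this size may hold no call.

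Of 50 telencephalic territory genes, SP8 and PRDM12 were called, both positive, against 0.245% of all genes tested. SP8, a transcription factor of olfactory bulb interneurons in mammals, had 49 ± 8.99 CPM in fluoxetine stressed, 51.5 ± 14.9 CPM in fluoxetine unstressed, 24.1 ± 4.83 CPM in vehicle stressed and 54.5 ± 12.5 CPM in vehicle unstressed libraries (log2 1.101 ± 0.26 SE, adjusted p = 0.0432), and PRDM12, a regulator of neuronal fate, had 19 ± 2 CPM in fluoxetine stressed, 26.4 ± 2.58 CPM in fluoxetine unstressed, 13.3 ± 1.92 CPM in vehicle stressed and 30.5 ± 6.46 CPM in vehicle unstressed libraries (log2 0.72 ± 0.17 SE, adjusted p = 0.0432). Of 30 neuron markers STMN2, a regulator of microtubules in axons, was called (log2 0.51 ± 0.12 SE, adjusted p = 0.0319), and of 43 neuropeptides cart4, a copy of the CART peptide gene, was (log2 0.80 ± 0.17 SE, adjusted p = 0.0195). Both were positive, against 0.245% of all genes tested. The calls held in 9 of 24 fits for SP8, 6 of 24 for PRDM12 and 17 of 24 for STMN2 when 1 library was left out. With the shared spread none of these 4 genes was called, at adjusted p of 0.329 for SP8, 0.0624 for PRDM12, 0.0766 for STMN2 and 0.524 for cart4. The mean log2 CPM of the territory markers was 4.46 to 4.71 in fluoxetine stressed, 4.41 to 4.90 in fluoxetine unstressed, 4.25 to 4.45 in vehicle stressed and 4.58 to 4.90 in vehicle unstressed libraries. For neuron markers it was 7.27 to 7.37, 7.04 to 7.22, 7.12 to 7.34 and 7.24 to 7.49 in the same 4 groups, and the part of both marker sets in these results was not tested.

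**Figure D4:**
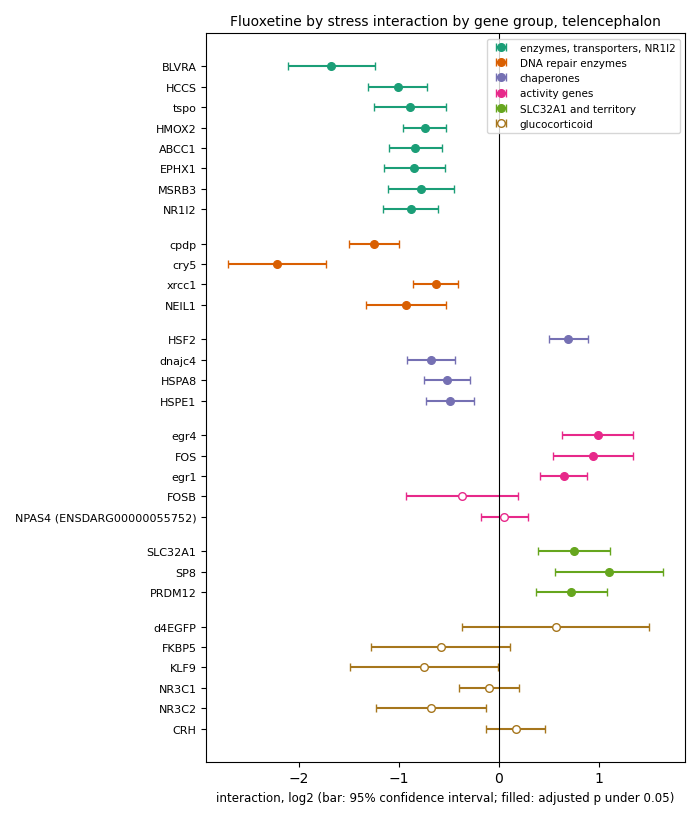
Interaction (log2, x axis) of 30 genes arranged by what they are known to do, filled where the adjusted p was under 0.05. Bars are 95% confidence intervals computed from edgeR's F statistics. The DNA repair colour includes xrcc1, a scaffold, and the chaperone colour includes HSF2, a transcription factor. Many of the genes were chosen after their values were seen, so a sign shared within a colour is no result. None of the 6 glucocorticoid genes is filled. These 6 leave out the 2 called glucocorticoid receptor targets, the PER1 copies.

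Further called genes, chosen after their values were seen, belonged to no list. BAIAP2, a scaffold of actin at synapses, rose with stress in both, by 1.68 on the log2 scale in fluoxetine fish and 2.79 in vehicle fish (log2 -1.104 ± 0.18 SE, adjusted p = 0.000764), as did PFKFB3, a regulator of glycolysis (1.33 and 1.99; log2 -0.66 ± 0.14 SE, adjusted p = 0.0172). ERF, a repressor of the ETS family, rose in both (0.35 and 0.93; log2 -0.58 ± 0.082 SE, adjusted p = 0.00017), and ZNF395 fell in both (-0.51 and -1.37; log2 0.86 ± 0.12 SE, adjusted p = 0.000132). In these 4 genes the response was in the same direction in both and smaller in fluoxetine fish, as for PRICKLE1, a planar polarity gene (0.55 and 1.36; log2 -0.81 ± 0.13 SE, adjusted p = 0.00106). The call for PFKFB3 was lost with the shared spread (adjusted p = 0.242).

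Other called genes showed a stress effect past the test in one exposure alone. TUBB2B, a neuronal tubulin, rose with stress in fluoxetine fish (0.55, adjusted p = 0.000386) and had -0.20 in vehicle fish (adjusted p = 0.12), and pgam1a, a glycolytic mutase, rose likewise (0.47, adjusted p = 4.67e-05; vehicle fish -0.13, adjusted p = 0.165). GRIP2, an anchor of AMPA receptors, and SLC1A1, a neuronal glutamate transporter, fell with stress in vehicle fish (-0.92 and -0.46) and had 0.0011 and 0.055 in fluoxetine fish (adjusted p = 0.995 and 0.687). ptgdsb.2, a copy of a prostaglandin D synthase gene, and SDHAF2, an assembly factor of succinate dehydrogenase, rose in vehicle fish (0.70 and 0.60) and had -0.27 and -0.16 in fluoxetine fish (adjusted p = 0.0621 and 0.19). LRP2, the endocytic receptor megalin, fell in fluoxetine fish (-0.43, adjusted p = 0.00647) and had 0.24 in vehicle fish (adjusted p = 0.0807). With the shared spread GRIP2, SLC1A1 and LRP2 had adjusted p of 0.0961, 0.084 and 0.0659 for the interaction. Among the 12 most positive genes by rank were also TCP11L2 (0.998) and 2 entries of unknown role, si:ch211-132b12.7 (1.199) and ENSDARG00000098360 (1.13).

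Of the listed glucocorticoid receptor targets outside the clock and the d4EGFP reporter, none passed the test for the interaction. The reporter d4EGFP had 62.6 to 143 CPM (median 136) in fluoxetine stressed and 9.12 to 32.1 CPM (median 23.1) in fluoxetine unstressed libraries. It had 39.6 to 115 CPM (median 65.5) in vehicle stressed and 10.3 to 27.7 CPM (median 17.5) in vehicle unstressed libraries. Each stressed group lay above its unstressed group without overlap, and fluoxetine stressed replicate 1 held 62.6 CPM against 124.7 to 143 in the other 5. Stress raised it 5.9-fold in fluoxetine fish and 3.99-fold in vehicle fish, and the interaction of 0.57 had an interval of -0.37 to 1.50 (adjusted p = 0.65).

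FKBP5, a co-chaperone that the receptor induces and that damps it, had 560.4 to 670.0 CPM (median 624) in fluoxetine stressed and 46.9 to 102 CPM (median 66.4) in fluoxetine unstressed libraries. It had 738 to 974 CPM (median 866) in vehicle stressed and 33.5 to 97.3 CPM (median 60.8) in vehicle unstressed libraries. Stressed fluoxetine libraries lay below stressed vehicle libraries without overlap, yet the interaction of -0.58 (interval -1.28 to 0.11) was not called, nor was the fluoxetine effect in stressed fish (-0.49, adjusted p = 0.242). KLF9, another direct target, rose 10.7-fold in fluoxetine fish and 17.9-fold in vehicle fish, with an interaction of -0.75 (interval -1.49 to -0.0087, adjusted p = 0.381). Of 50 glucocorticoid receptor targets tested, the 2 PER1 copies were called and 48 were not, against 0.8% of all genes called. Stress was called upward for 29 of the 50 in fluoxetine fish and 32 in vehicle fish, and downward for 4 and 7, against 6.35% and 15% of all genes upward and 7.26% and 11.8% downward.

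None of 24 genes of the stress axis was called, against 0.8% of all genes tested, a share at which a list of this size may hold no call. The receptor genes NR3C1 and NR3C2 had interactions of -0.10 (interval -0.40 to 0.20) and -0.68 (interval -1.23 to -0.13), and CRH, the hypothalamic hormone that starts the axis, 0.17 (interval -0.13 to 0.46). None of 24 genes of the serotonin system was called either, with the same limit. The 5-HT1A receptor copies HTR1A and htr1aa had 0.44 (interval 0.095 to 0.79) and 0.22 (interval -0.17 to 0.61). TPH2, the enzyme that makes serotonin in neurons, had 0.0581 to 30 CPM (median 1.01) in fluoxetine stressed, 0.157 to 23.1 CPM (median 0.459) in fluoxetine unstressed, 0.209 to 28.3 CPM (median 0.412) in vehicle stressed and 0.264 to 1.02 CPM (median 0.382) in vehicle unstressed libraries, and its interval of -6.84 to 2.38 on the log2 scale spans both directions. The transporter genes SLC6A4 and slc6a4b, which encode the protein that fluoxetine blocks, were too low to test, with 97 and 28 counts over the 24 libraries.

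Among the other lists, none of 81 cytosolic ribosomal protein genes, 94 nuclear oxidative phosphorylation genes, 75 mitochondrial ribosome genes, 55 proteasome genes, 98 potassium channel genes and 29 cholesterol synthesis genes was called, against 0.8% of all genes tested. The same held for 21 microglia, 17 oligodendrocyte and 24 radial glia markers. At that share lists of these sizes may hold no call. Several of these lists nevertheless lay mostly to one side of 0, where 8315 of 18367 genes tested had an interaction above 0. It was above 0 for 79 of the 81 ribosomal protein genes (median 0.30), 83 of the 94 oxidative phosphorylation genes (median 0.19) and 15 of the 17 oligodendrocyte markers (median 0.42). It was above 0 for 1 of the 21 microglia markers (median -0.35), 4 of the 25 endothelial markers (median -0.36) and 6 of the 24 radial glia markers (median -0.18). In other lists it was above 0 for 1 of 31 photoreceptor markers (median -3.20) and 25 of 33 skeletal muscle markers (median 0.72). The same was so for 14 of 15 hypothalamus and preoptic markers (median 0.32), 26 of 30 neuron markers (median 0.24) and 39 of 50 territory genes (median 0.23). So it was for 36 of 43 neuropeptide genes (median 0.24) and 13 of 13 mitochondrially encoded genes (median 0.21). The part of all these shifts in the results was not tested. Of 31 photoreceptor markers only the green opsin opn1mw1 was called (log2 -8.85 ± 2.01 SE, adjusted p = 0.0386, a fitted value that is no bound because libraries are at or near 0), on 0 to 1.22 CPM (median 0.0816) in fluoxetine stressed and 0.0928 to 27.1 CPM (median 13.3) in fluoxetine unstressed libraries, and 0.164 to 73.9 CPM (median 0.911) in vehicle stressed and 0 to 3.68 CPM (median 1.15) in vehicle unstressed libraries. The summed level of the 31 markers ranged over 13.8 to 809 CPM in fluoxetine stressed, 48.4 to 1881 CPM in fluoxetine unstressed, 68.9 to 3704 CPM in vehicle stressed and 61.8 to 2469 CPM in vehicle unstressed libraries. With their mean level as a term, the interaction of opn1mw1 was -3.61 with an adjusted p of 0.346, and its call held in 8 of 24 fits that left out 1 library.

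The same interaction in the hypothalamus of adults given the same treatments did not differ past the test from that in the telencephalon. In a fit of both regions, 0 of 19144 genes had a telencephalon minus hypothalamus difference past the threshold by edgeR, 1039 had an unadjusted p under 0.05 (5.43%), DESeq2 called 2 and limma voom 0. The smallest adjusted p was 0.156, for GPSM2. The hypothalamus fitted alone had 94 called genes of 18380 (0.511%), 33 positive (0.18%) and 61 negative (0.332%). Of the 147 telencephalic genes 55 were called there with the same sign, a share of 37.4% of the telencephalic and 58.5% of the hypothalamic list, and 136 of 145 tested there had the same sign, against 66.3% of all tested genes. The labels do not say whether both regions came from the same fish.

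Single genes sat close in the 2 regions or apart without passing the test. NR1D1 had an interaction of 1.85 in the telencephalon and 1.76 in the hypothalamus, and ciarta 1.49 and 1.55. smu1b had 1.69 and 2.09, a difference of -0.39 with an unadjusted interval of -0.69 to -0.092 (adjusted p = 0.716). BMAL1 copy ENSDARG00000035732 had -1.48 in the telencephalon and -2.82 in the hypothalamus (difference 1.35, adjusted p = 0.534), and nr1d4b 0.84 and 2.169 (adjusted p = 0.531). Called in the telencephalon and not in the hypothalamus were SLC32A1 (0.75 and 0.31) and PRDM12 (0.72 and 0.36), and for neither was the difference between regions called (adjusted p = 0.956 and 0.958).

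**Figure D5:**
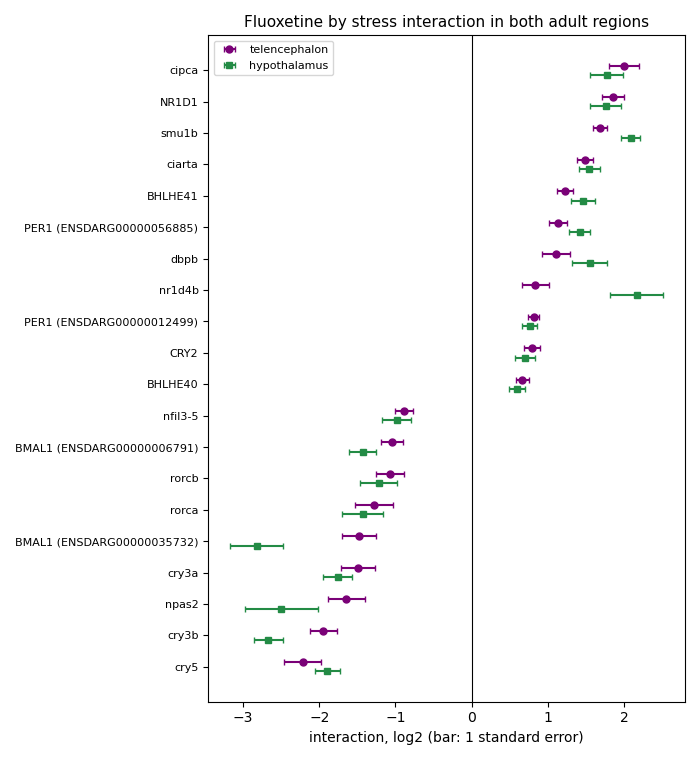
Interaction (log2, x axis) of 18 genes of the clock lists, cipca and smu1b in the telencephalon and in the hypothalamus, each region fitted alone, with 1 standard error as bars. All 20 genes have the same sign in both regions, and BMAL1 copy ENSDARG00000035732, nr1d4b and cry3b are among those with larger absolute values in the hypothalamus.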

How the data were processed

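Per the labels, RNA was sequenced from pools of 5 adult telencephala with a stranded mRNA kit. The submitters' processing notes name bcl2fastq 2.17.1.14, cutadapt, STAR 2.5 and DESeq2. The counting program, genome build and annotation were not given in the sources used here. The authors deposited a table of raw read counts for 72 libraries and 31902 entries, of which 29179 carry a symbol; 6136 entries share a symbol with another and are printed with an identifier. From those deposited counts, edgeR 4.0.16 in R 4.3.3 fitted the 24 telencephalon libraries as 4 groups (quasi-likelihood, robust, TMM scaling, filterByExpr with a count minimum of 10 and a total of 15), tested the interaction and the 4 simple effects, and adjusted p-values by the Benjamini-Hochberg method over all 18367 genes tested. The test was run on simulated data first. Its F statistics come without standard errors. Each SE printed is the absolute log2 value divided by the square root of F, and intervals are symmetric around the value. CPM are TMM-scaled, and marker levels are log2 CPM with a prior count of 2. DESeq2 1.42.0 and limma 3.58.1 (voom), other filters and scalings, each set of libraries, a spread shared with the hypothalamus, a replicate block and fits without 1 library were alternatives, and a photoreceptor marker term was added after seeing the data. The difference from the hypothalamus came from a fit of both regions.

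The members, the 47 gene lists and the rule for named genes were chosen with earlier results of these data known. The rule took called genes whose mean log2 CPM reached 1: the 12 largest positive and 12 largest negative interactions, the 15 lowest p and up to 4 lowest-p members of each list, plus a set of stress, clock and serotonin genes; of these the text prints part, and 1 called gene is not reported here.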

Additional observations from a re-analysis of the deposited data

Results flagged for a closer look

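The stress effect differed between fluoxetine and vehicle fish for 147 telencephalic genes by the test of the interaction itself. Among 368 groups of 6 libraries examined for 92 genes, 19 held 1 library set apart from the other 5 by a wide gap; chance alone flags about 5% of groups.

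TPH2 was set apart in 3 groups: vehicle stressed replicate 2 held 28.3 CPM against 0.209 to 0.763 in the other 5, fluoxetine unstressed replicate 4 held 23.1 CPM against 0.157 to 0.928, and vehicle unstressed replicate 6 held 1.02 CPM against 0.264 to 0.447. In RBP4, vehicle unstressed replicate 6 held 89.2 CPM against 29.9 to 39.2 in the others. The reporter d4EGFP was low in fluoxetine stressed replicate 1, at 62.6 CPM against 124.7 to 143, and KLF9 was low in the same library, at 143 CPM against 167 to 181.

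Vehicle stressed replicate 4 was high for BMAL1 copy ENSDARG00000006791 (41.4 CPM against 27.7 to 32.3), NEIL1 (24.1 against 15.5 to 18.6) and NFIL3 (17.5 against 12 to 13.8). Vehicle stressed replicate 6 was high for PER1 copy ENSDARG00000012499 (212 CPM against 192 to 199), replicate 3 for nfil3-5 (77.5 against 58.6 to 63.4), and replicate 5 was low for egr1 (377 against 421 to 442). Fluoxetine stressed replicate 6 was high for cipca (20.2 CPM against 14.5 to 15.7) and tspo (8.46 against 5.66 to 6.31) and low for smu1b (247 against 271 to 280.1). Fluoxetine stressed replicate 5 was high for KMT2C (109 CPM against 90.9 to 97.2) and low for NR3C1 (92.6 against 109 to 118). Fluoxetine unstressed replicate 1 was low for PRICKLE1 (7.88 CPM against 8.96 to 9.54), and replicate 6 was high for pgam1a (60.7 against 46.1 to 50.6).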

How the results depend on the processing

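The interaction count of 147 (30.6% positive) was 406 by DESeq2 (41.9% positive, 170 against 236), 36 in replicates 1 to 3 and 18 in replicates 4 to 6, and 109 to 289 without 1 library. Stress calls in fluoxetine fish were 609 and 674 within the 2 sets of libraries and 1830 to 2804 without 1 library; in vehicle fish they were 1565 and 2325, and 3487 to 6115. Fluoxetine calls in unstressed fish were 2596 by DESeq2, 839 with no filter on low counts, 2167 with the set as a term, 0 and 5 within sets and 281 to 3627 without 1 library; in stressed fish they were 1308 by DESeq2, 175 and 49 within sets and 371 to 1299. The region difference had 2 calls by DESeq2 and 0 to 1 without 1 library. Sets of 3 libraries a group hold fewer samples; for the rest the cause was not tested.

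Replicate numbers are shared across groups, and whether they pair the samples was not settled. In 0 of 6 pairs of groups were all correlations of same-numbered libraries above 0.1 (-0.43 to 0.55). That check cannot exclude pairing of some groups. Between the 2 unstressed groups 4 of 6 correlations were above 0.1 (median 0.259), and 4 libraries correlated best with their own number. Between fluoxetine unstressed and vehicle stressed libraries both counts were 0 (median -0.0918). With the replicate number as a block, the counts were 223 for the interaction (37.2% positive), 3378 and 1363 for fluoxetine in unstressed and stressed fish and 2 for the region difference.

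Of 81 named genes called for the interaction, 67 were called in every fit without 1 library. Calls were lost for 18 of the 81 when all 48 adult libraries shared the spread, 53 in replicates 1 to 3, 63 in replicates 4 to 6, 8 with no filter on low counts, 8 with the photoreceptor term, 5 by limma voom, 1 with RLE factors and 1 with the replicate block. DESeq2, the set as a term and the mean level filter lost none. Only uncalled genes changed sign: KLF9 to 0.022 in replicates 4 to 6; NPAS4 copy ENSDARG00000055752 to -0.023 with the photoreceptor term; TPH2 to 0.28 by limma voom, 1.28 in replicates 4 to 6, and 0.98 and 1.37 without fluoxetine unstressed replicate 4 or vehicle stressed replicate 2 (-2.93 to 1.37 over all fits without 1 library); SMU1 to 0.024 in replicates 1 to 3 and 0.0059, 0.024 and 0.039 without vehicle stressed replicate 5, fluoxetine unstressed replicate 6 or vehicle stressed replicate 4 (-0.083 to 0.039 over all such fits).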
